A study of Homo sapiens with 12 samples.

Results

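The genes described here are 10 transporters of the plasma membrane that carry amino acids into or out of the cell, SLC7A11, SLC7A5, SLC3A2, SLC7A1, SLC38A1, SLC38A2, SLC1A4, SLC1A5, SLC6A9 and SLC43A1. They were taken by gene symbol from a count table of 32077 genes, and all 10 were found there, each with 1 entry. RNA sequencing was carried out on 12 samples of PC3 and DU145, long-established lines of human prostate cancer that do not need androgen to grow. Vehicle-treated and pentamidine-treated groups of each line held 3 samples each, all of the genotype given as wild type. Pentamidine, an aromatic diamidine used against protozoa, was given at 2.5 µM for 48 h, and the vehicle was sterile water for the same time. Between 13514195 and 15131436 reads were counted on genes in each sample. Nothing in the labels says that the 3 samples of a group came from separate cultures, so p-values measure the spread between these samples, which may be technical. The genome build is GRCh38.

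Amino acids cross the plasma membrane by exchange, by uptake coupled to sodium, or through carriers that need neither. SLC3A2 is a glycoprotein heavy chain that brings light chains such as SLC7A5 and SLC7A11 to the cell surface, where SLC7A5 exchanges glutamine for large neutral amino acids and SLC7A11 takes up cystine, a source of cysteine for glutathione, in exchange for glutamate. Many of these genes are known targets of ATF4, a transcription factor made when amino acids run short or the endoplasmic reticulum or mitochondria are under stress.

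Marker genes were first set against the labels. PC3 cells are known to lack CTNNA1, the gene of alpha-catenin, by homozygous deletion. However, CTNNA1 had 6357, 6714 and 6003 counts in the PC3-labelled vehicle samples and 5711, 5756 and 5906 in the DU145-labelled ones. It was therefore present in samples whose label says it should be absent, at levels near those of the other line. EPCAM, an epithelial surface protein that both lines are known to make, had at most 2 counts in any of the 12 samples. CDH1, the gene of E-cadherin, had at most 10, and was chosen for mention after its values were seen. The epithelial keratin KRT8 averaged 20.2 ± 1.51 CPM (SD, n = 3) in the PC3-labelled vehicle samples and 2710.4 ± 89.4 in the DU145-labelled ones, while KRT18 averaged 155 ± 14.2 and 915 ± 23.7 CPM. Markers of blood, endothelium and fibroblasts were at or near 0, with summed counts over all 12 samples of 12 for PTPRC and CD68 (2 of 3 markers listed), 82 for PECAM1, CDH5 and VWF, and 307 for COL1A1, COL1A2 and COL3A1. KLK3 and KLK2, genes driven by the androgen receptor, had at most 3 counts. The samples labelled PC3 thus went against their label at this deletion, and EPCAM was at or near 0 in all 12 samples. The line names below therefore stand for the labels alone. Short tandem repeat profiling of the lines is described in the study's methods, and the counts cannot test it. Since every sample was affected, no result could be given without them.

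**Figure D1:**
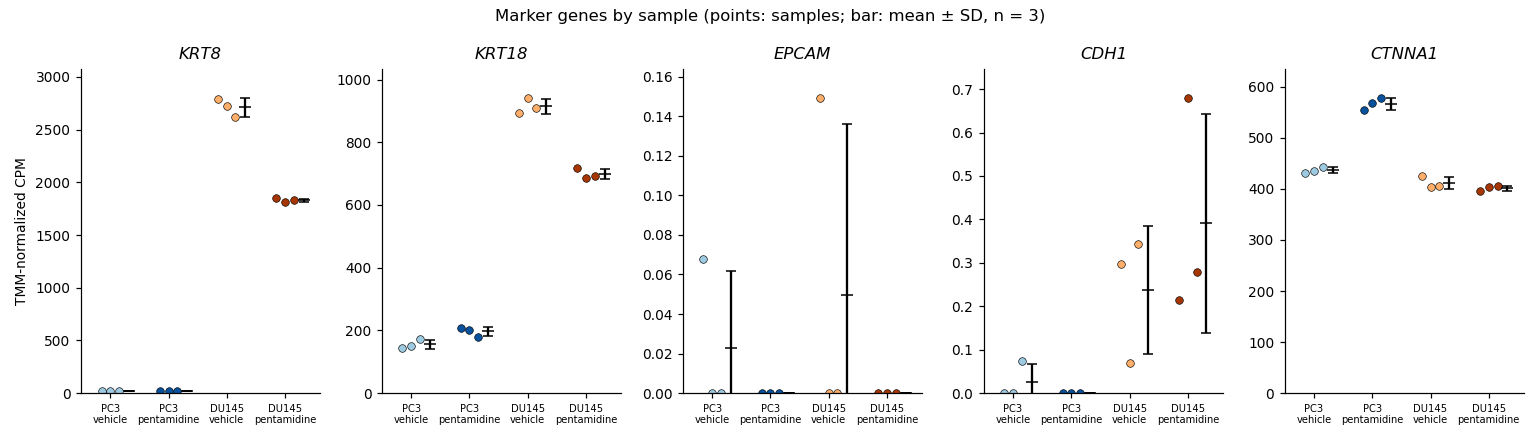
TMM-normalized counts (CPM) of 5 marker genes in each of the 12 samples, with points for samples and bars for the mean ± SD (n = 3). CTNNA1 stands well above 0 under both labels, while EPCAM and CDH1 stay under 1 CPM on their own narrow axes.

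Normalized values (CPM) are counts scaled by library size with the TMM method over all 12 samples. Together the 10 transporters took up 0.326% ± 0.0111 (SD, n = 3) of all counts in the PC3-labelled vehicle samples and 0.735% ± 0.0098 in those given pentamidine. In the DU145-labelled samples this share was 0.249% ± 0.0011 with vehicle and 0.381% ± 0.0016 with pentamidine. Mitochondria-encoded genes moved the other way over the same samples, from 3.85% ± 0.0613 to 2.71% ± 0.0488 of counts in the PC3-labelled and from 4.54% ± 0.126 to 2.01% ± 0.0578 in the DU145-labelled samples. Leaving them out of the library size and scaling changed no call on a transporter. In RNA from whole cultures, a larger share of cells with high expression and more RNA per cell cannot be told apart.

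Of the 9 transporters with enough counts to be tested in the PC3-labelled samples, all 9 rose with pentamidine at an adjusted p below 0.05 (edgeR), where 43.4% of the 13861 genes tested changed and 21.7% rose. The 6 that also passed the study's threshold of an absolute log2 fold change above 1 were SLC6A9, SLC1A4, SLC7A5, SLC7A11, SLC3A2 and SLC1A5, where 3.44% of all genes rose past it. Their median log2 fold change was 1.63 over the 9, beside 0.0046 over all genes tested. In the DU145-labelled samples all 10 were tested and 9 rose, where 34.0% of 14313 genes changed and 17.2% rose. The 3 past the study's threshold there were SLC7A11, SLC1A4 and SLC6A9, where 1.37% of all genes rose past it, and the median log2 fold change of the 10 was 0.91 beside 0.0085 over all genes. SLC43A1 was under the filter on low counts in the PC3-labelled samples and did not pass under the DU145 label. In 9 of the 10 genes every pentamidine sample stood above every vehicle sample under the PC3 label, as in 26.1% of all genes tested there, and likewise in 9 of the 10 under the DU145 label, as in 21.9%.

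**Figure D2:**
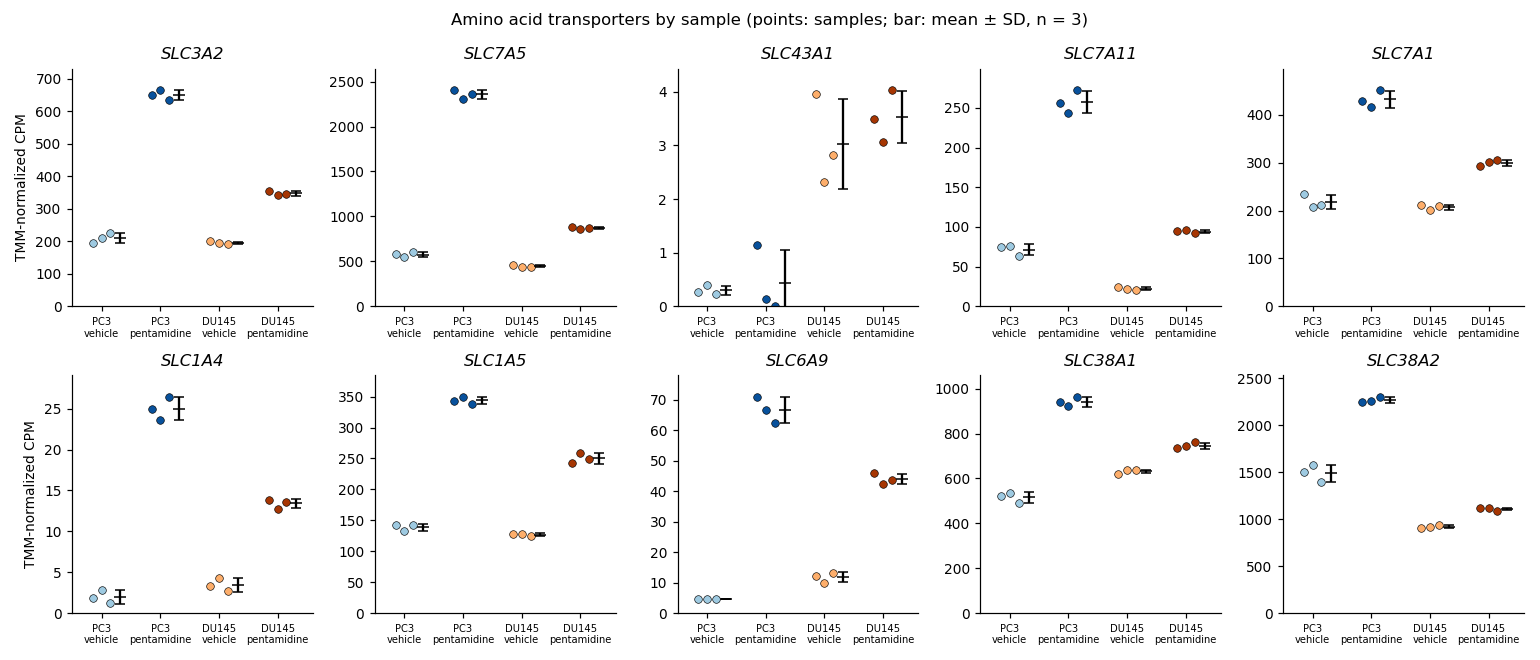
TMM-normalized counts (CPM) of each transporter in each of the 12 samples, with points for samples, bars for the mean ± SD (n = 3) and a linear axis from 0 in every panel. For 9 of the 10 genes the pentamidine samples lie above the vehicle samples of the same label with no overlap, and SLC43A1 overlaps under both labels.

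SLC3A2 (ENSG00000168003, chr11:62856102-62888875, plus strand) encodes the heavy chain shared by several of these exchangers. Its counts were 195, 210.5 and 224 CPM in the PC3-labelled vehicle samples and 649, 665 and 635 CPM in the pentamidine samples. Under the DU145 label they were 199, 193 and 191 CPM with vehicle and 356, 341 and 346 CPM with pentamidine. All 6 pentamidine samples were above all 6 vehicle samples, and the vehicle samples of both labels overlapped. The mean rose 3.10-fold under the PC3 label (log2 fold change 1.63, SE 0.06, edgeR adjusted p = 2.66e-13) and 1.79-fold under the DU145 label (log2 fold change 0.84, SE 0.03, adjusted p = 1.42e-27).

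Promoter windows of these genes, from 250 bases before to 50 after each start, were searched on both strands for TGATGNAA, the core of the element bound by C/EBP and ATF proteins, and for TGACNNNGC, the core of the element bound by NRF2. The table of RefSeq promoters (GRCh38.p14) held 16 windows for 9 of the 10 genes and none for SLC7A11. The first core was in 5 of the 16 windows, 1 each of SLC3A2, SLC7A1, SLC38A1, SLC1A4 and SLC1A5, beside 3.62% of all 35116 windows. The second was in 4 of the 16, 1 each of SLC7A5, SLC3A2, SLC7A1 and SLC1A5, beside 13.3% of all windows. The windows of SLC3A2 and SLC7A1, which hold both cores, and that of SLC1A4, which had the largest rise among genes with the first core, are shown 5′ to 3′ on the strand of the gene with the matched letters in capitals. They lie at chr11:62881449-62881748 (plus strand) for SLC3A2, chr13:29595639-29595938 (minus strand) for SLC7A1 and chr2:64989149-64989448 (plus strand) for SLC1A4.
SLC3A2: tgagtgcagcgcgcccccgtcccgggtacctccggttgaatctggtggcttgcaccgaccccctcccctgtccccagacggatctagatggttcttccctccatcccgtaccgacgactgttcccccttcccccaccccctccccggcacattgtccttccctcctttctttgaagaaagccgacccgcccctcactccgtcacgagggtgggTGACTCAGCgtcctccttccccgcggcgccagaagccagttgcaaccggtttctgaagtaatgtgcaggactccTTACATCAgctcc
SLC7A1: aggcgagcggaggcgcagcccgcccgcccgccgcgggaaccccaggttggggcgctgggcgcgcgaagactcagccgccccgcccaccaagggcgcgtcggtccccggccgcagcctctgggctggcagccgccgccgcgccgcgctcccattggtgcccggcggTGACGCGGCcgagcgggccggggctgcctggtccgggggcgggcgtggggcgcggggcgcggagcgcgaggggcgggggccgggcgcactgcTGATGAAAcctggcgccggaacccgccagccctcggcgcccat
SLC1A4: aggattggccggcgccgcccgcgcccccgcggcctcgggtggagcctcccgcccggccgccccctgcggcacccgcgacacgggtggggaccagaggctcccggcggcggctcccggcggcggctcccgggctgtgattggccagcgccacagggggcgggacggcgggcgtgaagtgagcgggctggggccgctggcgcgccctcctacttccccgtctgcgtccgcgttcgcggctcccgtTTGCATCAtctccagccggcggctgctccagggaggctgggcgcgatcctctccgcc
The C/EBP-ATF core begins at base 288 of the SLC3A2 window and base 244 of the SLC1A4 window, both on the reverse strand, and at base 258 of the SLC7A1 window on the forward strand, with the first transcribed base at 251. The NRF2 core begins at base 214 for SLC3A2 and base 166 for SLC7A1. A match of these letters is a description of the sequence.

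SLC7A5 (ENSG00000103257, chr16:87830023-87869488, minus strand) encodes the light chain that exchanges large neutral amino acids such as leucine. SLC7A5 stood, under the PC3 label, at 577, 546 and 599 CPM with vehicle and 2405, 2311 and 2359 CPM with pentamidine. The DU145-labelled samples gave 456, 441 and 435 CPM with vehicle and 878, 855 and 872 CPM with pentamidine. No pentamidine sample overlapped a vehicle sample, and the PC3-labelled samples were the higher in both arms. The rise was 4.12-fold under the PC3 label (log2 fold change 2.04, SE 0.05, edgeR adjusted p = 1.55e-15) and 1.96-fold under the DU145 label (log2 fold change 0.97, SE 0.03, adjusted p = 9.2e-33). The second of these lies just under the study's threshold, and passed it with library size alone at a log2 fold change of 1.02. A partial copy of SLC7A5, the pseudogene SLC7A5P1, had 86, 84 and 74 counts with vehicle and 66, 95 and 74 with pentamidine under the PC3 label, and 44, 46 and 46 against 56, 52 and 54 under the DU145 label. The arms overlapped under the PC3 label and stood slightly apart under the DU145 label, and SLC7A5P1 did not pass the test under either (log2 fold changes -0.04 and 0.23, edgeR adjusted p = 0.861 and 0.421). Reads shared by SLC7A5 and SLC7A5P1 could be counted on either, so these values are uncertain, and the antisense gene AC126696.2, whose exons overlap SLC7A5, had at most 12 counts.

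SLC7A11 (ENSG00000151012, chr4:138164097-138242349, minus strand) encodes the cystine and glutamate exchanger. SLC7A11 stood, under the PC3 label, at 74.9, 75.9 and 63.0 CPM with vehicle and 256, 244 and 272 CPM with pentamidine. Under the DU145 label the values were 23.9, 22.2 and 19.8 CPM with vehicle and 94.4, 95.8 and 92.3 CPM with pentamidine. The 4 groups did not overlap, and the DU145-labelled vehicle samples were the lowest of all. SLC7A11 rose 3.62-fold under the PC3 label (log2 fold change 1.86, SE 0.07, edgeR adjusted p = 5.67e-13). It rose 4.31-fold under the DU145 label (log2 fold change 2.11, SE 0.06, adjusted p = 1.86e-34), where it ranked 17 by fold change among the 14313 genes tested. The overlapping antisense gene SLC7A11-AS1 had 16, 2 and 8 counts with vehicle and 28, 19 and 44 with pentamidine under the PC3 label, and 4, 2 and 4 against 22, 12 and 20 under the DU145 label. It rose under both (log2 fold changes 1.79 and 2.37, edgeR adjusted p = 0.00456 and 0.000105). The use of strand in counting is not given in the sources used here, so these counts and those of SLC7A11 cannot be told apart where the exons overlap.

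Levels of different genes were compared per kilobase of the union of exons in GENCODE release 29, as TPM, a share of transcripts scaled to the same sum in each sample. The union holds the exons of every annotated form of a gene, 5.178 kb for SLC3A2 and 9.645 kb for SLC7A11. Where the main transcript is shorter the level is understated, so ratios between genes are approximate and their SD leaves this out. Light chains of SLC3A2 (SLC7A5, SLC7A6, SLC7A7, SLC7A8, SLC7A10 and SLC7A11) summed to 517 ± 15.7 TPM (SD, n = 3) with vehicle and 2025 ± 65.2 TPM with pentamidine under the PC3 label. SLC7A5 made up 87.6 ± 0.621% of that sum with vehicle and 93.6 ± 0.263% with pentamidine. The sum was 3.42 ± 0.232 times the level of SLC3A2 with vehicle and 4.23 ± 0.163 times with pentamidine. Under the DU145 label the ratio of light chains to SLC3A2 was 2.70 ± 0.0167 with vehicle and 2.93 ± 0.0329 with pentamidine, and the groups did not overlap under either label. The share of SLC7A11 in the light chains was 2.24 ± 0.153% with vehicle and 4.96 ± 0.139% with pentamidine under the DU145 label, and 5.37 ± 0.721% and 5.03 ± 0.238% under the PC3 label, where the groups overlapped. SLC7A6, another light chain, fell with log2 fold changes of -0.46 and -0.45 under the PC3 and DU145 labels. SLC7A8 and SLC7A10 had at most 0.0905 and 0.0838 TPM in any sample.

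SLC43A1 (ENSG00000149150, chr11:57484534-57515786, minus strand) is a further carrier of large neutral amino acids that needs no heavy chain. Its counts under the PC3 label were 4, 6 and 3 with vehicle and 17, 2 and 0 with pentamidine, too few for the filter on low counts. It did not pass in the 3 alternatives that tested it there, with log2 fold changes of 0.54 without the filter (edgeR adjusted p = 0.603), 0.06 with limma on log2(CPM + 1) without a filter (adjusted p = 0.873) and 0.54 with all 12 samples in 1 fit (edgeR adjusted p = 0.59). DU145-labelled samples gave 3.95, 2.31 and 2.82 CPM with vehicle and 3.50, 3.06 and 4.03 CPM with pentamidine. The groups overlapped under both labels, with 1 pentamidine sample of the PC3 label standing above the rest of that label. The log2 fold change under the DU145 label was 0.23 (SE 0.22, edgeR adjusted p = 0.453), with a 95% interval from -0.21 to 0.67, so a change was not detectable at this depth.

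SLC7A1 (ENSG00000139514, chr13:29509410-29595688, minus strand) is the main carrier of arginine and lysine in many cells. SLC7A1 stood, under the PC3 label, at 235, 208 and 211 CPM with vehicle and 428, 417 and 452 CPM with pentamidine. Values under the DU145 label were 211, 201 and 209 CPM with vehicle and 294, 301 and 306 CPM with pentamidine. Pentamidine samples were higher in each label with no overlap, and the vehicle samples of both labels lay in one range. The rise was 1.99-fold under the PC3 label (log2 fold change 0.99, SE 0.05, edgeR adjusted p = 1.56e-10) and 1.45-fold under the DU145 label (log2 fold change 0.54, SE 0.03, adjusted p = 4.3e-19). Without replicate 1 of the PC3-labelled vehicle samples or replicate 2 of the pentamidine samples, the first of these was 1.04 or 1.01 and passed the study's threshold.

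SLC1A4 (ENSG00000115902, chr2:64988477-65023865, plus strand) and SLC1A5 are sodium-dependent exchangers of small neutral amino acids, SLC1A4 mainly of alanine, serine and cysteine and SLC1A5 also of glutamine. SLC1A4 was close to silent with vehicle, at 1.83, 2.85 and 1.25 CPM under the PC3 label and 3.28, 4.35 and 2.69 CPM under the DU145 label. With pentamidine it reached 25.0, 23.6 and 26.4 CPM and 13.9, 12.8 and 13.6 CPM. The vehicle samples of both labels overlapped, and every pentamidine sample was well above them. SLC1A4 rose 12.4-fold under the PC3 label (log2 fold change 3.64, SE 0.17, edgeR adjusted p = 2.49e-11) and 3.91-fold under the DU145 label (log2 fold change 1.97, SE 0.15, adjusted p = 4.11e-16). These folds rest on raw counts of 17 to 44 and 39 to 62 in the vehicle samples.

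SLC1A5 (ENSG00000105281, chr19:46774883-46788594, minus strand) started from a higher level. SLC1A5 stood, under the PC3 label, at 142, 132 and 142 CPM with vehicle and 344, 349 and 339 CPM with pentamidine. The corresponding values under the DU145 label were 128, 128 and 124 CPM and 242, 258 and 249.6 CPM. Both arms were apart under both labels. SLC1A5 rose 2.48-fold (log2 fold change 1.31, SE 0.05, edgeR adjusted p = 9.92e-13) and 1.98-fold (log2 fold change 0.98, SE 0.04, adjusted p = 6.77e-29) under the PC3 and DU145 labels. The second value reached 1.00 without replicate 1 of the DU145-labelled pentamidine samples and 1.03 with library size alone, past the study's threshold.

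SLC6A9 (ENSG00000196517, chr1:43991500-44031467, minus strand) takes up glycine together with sodium and chloride. SLC6A9 stood, under the PC3 label, at 4.75, 4.60 and 4.72 CPM with vehicle and 70.9, 66.7 and 62.6 CPM with pentamidine. The DU145 label had 12.3, 9.95 and 13.2 CPM with vehicle and 45.8, 42.5 and 43.6 CPM with pentamidine. The 4 groups did not overlap, with PC3-labelled vehicle lowest and PC3-labelled pentamidine highest. The rise was 14.3-fold under the PC3 label (log2 fold change 3.83, SE 0.09, edgeR adjusted p = 2.02e-15), and SLC6A9 ranked 22 by fold change among the 13861 genes tested. The DU145 rise was 3.73-fold (log2 fold change 1.90, SE 0.08, adjusted p = 9.81e-26). CCDC24, whose exons overlap SLC6A9 on the opposite strand, had log2 fold changes of 0.12 and 0.21 and did not pass the test under either label (edgeR adjusted p = 0.538 and 0.282).

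SLC38A1 (ENSG00000111371, chr12:46183063-46270017, minus strand) and its neighbour SLC38A2 take up glutamine, alanine and other small neutral amino acids with sodium. SLC38A1 stood, under the PC3 label, at 519.7, 537 and 489 CPM with vehicle and 940.2, 921 and 962 CPM with pentamidine. For the DU145 label they were 622, 636 and 636 and 734, 743 and 761 CPM. Pentamidine samples lay above vehicle samples with a narrow gap under the DU145 label and a wide one under the PC3 label. The log2 fold change of SLC38A1 was 0.87 (SE 0.05, edgeR adjusted p = 1.98e-10) under the PC3 label and 0.25 (SE 0.03, adjusted p = 1.84e-09) under the DU145 label.

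SLC38A2 (ENSG00000134294, chr12:46358189-46372867, minus strand) was the most abundant of the 10 per kilobase in the vehicle samples. SLC38A2 stood, under the PC3 label, at 1502, 1575 and 1395 CPM with vehicle and 2244, 2262 and 2299.6 CPM with pentamidine. The DU145-labelled samples held 905, 916 and 938 CPM with vehicle and 1116, 1116 and 1092 CPM with pentamidine. All PC3-labelled samples were above all DU145-labelled ones, and within each label the arms did not overlap. Its log2 fold change was 0.61 (SE 0.05, edgeR adjusted p = 2.77e-08) under the PC3 label, the smallest of the 9 tested there, and 0.27 (SE 0.03, adjusted p = 3.31e-11) under the DU145 label. The antisense gene AC025031.2, which overlaps SLC38A2 without a shared exon, rose under the PC3 label from 20, 17 and 14 to 42, 49 and 37 counts (log2 fold change 1.33, edgeR adjusted p = 0.000662). DU145-labelled samples had 3, 11 and 6 counts with vehicle and 6, 14 and 16 with pentamidine, which overlapped (log2 fold change 0.81, edgeR adjusted p = 0.189).

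**Figure D3:**
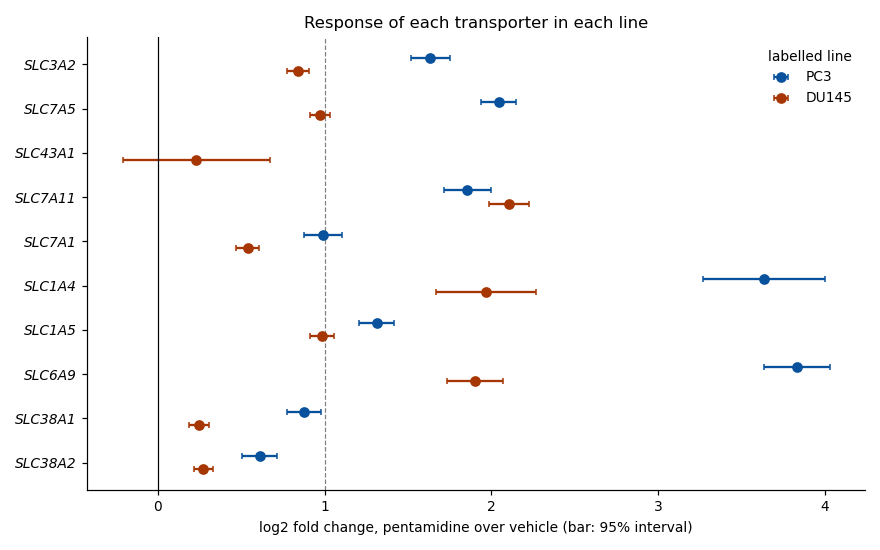
Log2 fold change of each transporter with pentamidine over vehicle under the PC3 label (blue) and the DU145 label (brown), with bars for the 95% interval, a solid line at 0 and a dashed line at 1. SLC43A1 has no PC3 value because its counts were under the filter there, and SLC7A11 is the gene whose DU145 value lies above its PC3 value.

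Whether the responses differed between the labels was tested as an interaction over all 12 samples. Of the 10 transporters 8 differed at an adjusted p below 0.05 (edgeR), where 20.4% of the 15226 genes tested did, and in all 8 the rise was smaller under the DU145 label, a direction that 10.2% of all genes took. The difference of log2 fold changes, DU145 minus PC3, was -1.93 for SLC6A9 (SE 0.14, adjusted p = 6.03e-11), -1.67 for SLC1A4 (SE 0.26, adjusted p = 2.05e-05) and -1.07 for SLC7A5 (SE 0.05, adjusted p = 1.81e-14). These 3 were also beyond 1 in size, where 1.71% of all genes were, in that direction. Smaller differences were found for SLC3A2 (-0.79), SLC38A1 (-0.63), SLC7A1 (-0.45), SLC38A2 (-0.34) and SLC1A5 (-0.33), with adjusted p from 2.38e-10 to 0.000176 over SLC38A1, SLC3A2, SLC7A1, SLC38A2 and SLC1A5. For SLC7A11 the difference was 0.25 (SE 0.10, adjusted p = 0.0676), with the larger rise under the DU145 label, and did not pass. That difference passed without replicate 3 of the PC3-labelled vehicle (0.32, adjusted p = 0.00593) or pentamidine samples (0.29, adjusted p = 0.0394) or replicate 1 of the DU145-labelled vehicle samples (0.30, adjusted p = 0.0429), within a range of adjusted p from 0.00593 to 0.278 over 23 alternatives. For SLC43A1 the difference was -0.31 (SE 0.79, adjusted p = 0.843), and 2.19 without the PC3-labelled pentamidine sample that held 17 counts (adjusted p = 0.127, within 0.127 to 1 over 22 alternatives).

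The vehicle samples give the level from which each gene started. Between the labels 7 of the 10 differed (edgeR adjusted p below 0.05), where 65.3% of 14394 genes did. Higher under the DU145 label were 4, SLC43A1, SLC6A9, SLC1A4 and SLC38A1, where 33.8% of all genes were higher, and lower were 3, SLC7A11, SLC38A2 and SLC7A5, where 31.5% were. SLC43A1, SLC7A11 and SLC6A9 differed by more than 1 on the log2 scale, as did 19.2% of all genes, and SLC1A4 joined them without replicate 2 of the PC3-labelled samples, at 1.16 (adjusted p = 0.0045, within 0.00393 to 0.125 over 18 alternatives). SLC7A11 averaged 71.3 ± 7.21 CPM under the PC3 label and 22.0 ± 2.03 CPM under the DU145 label (SD, n = 3), and its log2 difference, DU145 against PC3, was -1.68 (SE 0.09, edgeR adjusted p = 5.28e-11). SLC43A1 averaged 0.294 ± 0.0860 and 3.03 ± 0.840 CPM, a log2 difference of 3.33 (SE 0.37, adjusted p = 7.9e-07). On the scale of log2(CPM + 1), which understates differences of low genes, limma gave 1.59, the lowest of 17 alternatives that reached up to 3.58. The labels cannot be told apart here from differences in culture.

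For SLC6A9 and SLC38A1 the log2 difference was 1.36 and 0.32, and for SLC38A2 and SLC7A5 it was -0.67 and -0.35, with no overlap of the vehicle samples in any of these. The difference of SLC1A4, 0.80 (SE 0.28, edgeR adjusted p = 0.0197), came with overlapping samples and was lost without replicate 3 of the PC3-labelled samples (0.56, adjusted p = 0.0962) or replicate 2 of the DU145-labelled ones (0.60, adjusted p = 0.125), and with limma on log2(CPM + 1) without a filter (0.55, adjusted p = 0.104), within 0.00393 to 0.125 over 18 alternatives. SLC7A1, SLC3A2 and SLC1A5 did not pass, with log2 differences of -0.05, -0.08 and -0.11. SLC3A2 passed without replicate 1 of the PC3-labelled samples (-0.14, adjusted p = 0.00884, within 0.00884 to 0.429) and SLC1A5 without replicate 2 of them (-0.15, adjusted p = 0.0231, within 0.00331 to 0.213).

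Per kilobase, the order of the 10 genes in the PC3-labelled vehicle samples ran from SLC38A2 at 846 ± 67.6 TPM (SD, n = 3) and SLC7A5 at 453 ± 16.2 TPM through SLC38A1, SLC1A5, SLC3A2 and SLC7A1, between 193 and 106 TPM, to SLC7A11 at 27.7 ± 3.39, SLC6A9 at 3.40 ± 0.0952, SLC1A4 at 1.07 ± 0.449 and SLC43A1 at 0.312 ± 0.0949 TPM. SLC1A5 and SLC3A2 were the neighbours in this order whose samples overlapped. With pentamidine SLC7A5 came first under the PC3 label, at 1896 ± 59.6 TPM, ahead of SLC38A2 at 1310.3 ± 28.9 TPM, and moved from rank 259 to rank 38 among the 31961 genes with a length. Under the DU145 label the same exchange took place, with SLC38A2 at 484 ± 8.10 and SLC7A5 at 325 ± 9.73 TPM with vehicle, and 647 ± 5.34 and 705 ± 10.7 TPM with pentamidine. SLC6A9 and SLC7A11 overlapped there with vehicle, as did SLC1A5 and SLC3A2, and with pentamidine SLC1A5 overlapped SLC38A1. The folds ran against this order in part, since the largest rises under the PC3 label, those of SLC6A9 and SLC1A4, began from low levels, and that of SLC38A2, the most abundant at the start, was the smallest.

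**Figure D4:**
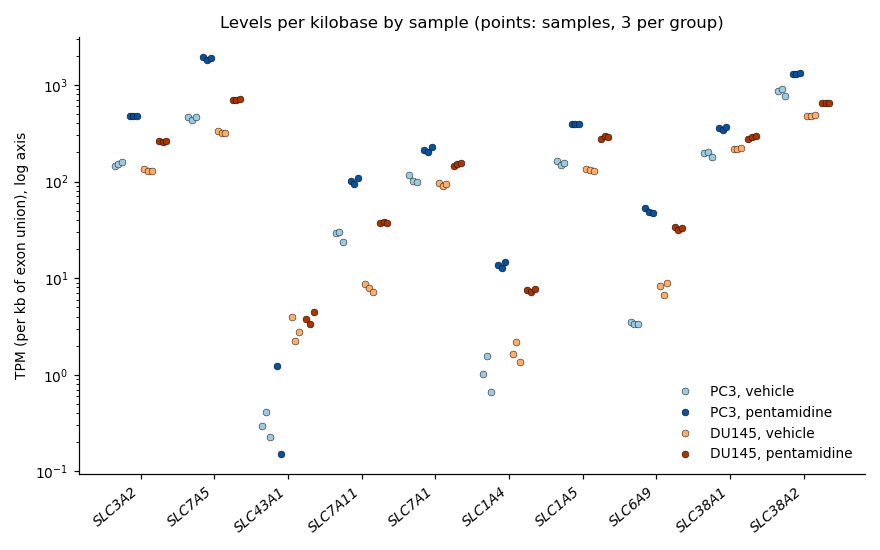
Level of each transporter per kilobase of exon union, in TPM on a log axis, with 1 point per sample and 3 samples per group. SLC38A2 and SLC7A5 are the highest in all 4 groups, and the 1 PC3-labelled pentamidine sample without a count of SLC43A1 is not drawn.

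The pattern over the 12 samples was compared between genes by the root mean square difference of log2 CPM, each gene centred on its own mean, among 15226 genes. The 5 genes most like SLC7A11 were GDF15 (difference 0.33 on the log2 scale), AL031985.3 (0.35), TRIB3 (0.3975), RAB39B (0.3975) and PHGDH (0.41). Its nearest other transporter was SLC7A5 at 0.53, with 16 genes nearer. SLC3A2 and SLC1A5 were the closest pair of the 10, at 0.17, followed by SLC7A1 and SLC38A1 at 0.19 and SLC7A1 and SLC1A5 at 0.20. The transporter nearest to SLC7A5 was SLC3A2 at 0.26, and that nearest to SLC38A2 was SLC7A1 at 0.33. Genes outside the 10 lay nearer still in each of these cases, with 11 and 13 nearer to SLC3A2 and SLC1A5 than each other, 89 and 201 nearer to SLC7A1 and SLC38A1, 9 nearer to SLC7A5 than SLC3A2, and 1829 nearer to SLC38A2 than SLC7A1. SLC6A9 and SLC1A4 were nearest to each other at 0.39, and 1 and 2 other genes lay nearer to SLC1A4 and SLC6A9. SLC43A1 was far from all of them, at 1.74 from the nearest, with 8384 other genes nearer.

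Other amino acid transporters of the plasma membrane were mostly too low to be tested. Of 27 in the count table, 7 were tested under the PC3 label, and 6 under the DU145 label. Under both labels SLC43A2 rose and SLC6A6, SLC7A2 and SLC7A6 fell, SLC43A2 and SLC7A6 being named after their values were seen. The median log2 fold change was -0.10 over the 7 tested under the PC3 label and -0.32 over the 6 tested under the DU145 label. The taurine carrier SLC6A6 fell from 148, 141 and 155 to 64.4, 61.1 and 68.2 CPM under the PC3 label and from 135, 126 and 132 to 95.5, 91.2 and 93.3 CPM under the DU145 label. Its log2 fold changes were -1.19 and -0.49 (edgeR adjusted p = 4.58e-11 and 4.52e-14). SLC7A2, a carrier of cationic amino acids like SLC7A1, went the other way from SLC7A1, with log2 fold changes of -1.08 and -0.69 (edgeR adjusted p = 0.000875 and 0.00283). Of 8 transporters of the lysosome membrane, 7 were tested under each label, with medians of 0.08 and -0.0014. Under the PC3 label 3 rose, MFSD12, SLC38A7 and PQLC2, and SLC36A4 fell. Under the DU145 label MFSD12 rose and SLC36A1 fell, and all of these were named after their values were seen. For comparison with both lists, 43.4% of all genes tested changed under the PC3 label and 34.0% under the DU145 label.

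Enzymes that make or use the amino acids carried by these transporters rose in part. Under the PC3 label 14 of 21 tested rose and 2, SHMT1 and ALDH18A1, fell (median log2 fold change 0.98), and under the DU145 label 14 of 22 rose and 3 fell, among them GCLM and ALDH18A1 (median 0.50). The genes given as falling were named after their values were seen. Of all genes tested, 21.7% rose under the PC3 label and 17.2% under the DU145 label. Named with their PC3 and DU145 log2 fold changes, the 8 with the largest mean change were CHAC1 (3.91 and 2.89), ASNS (2.29 and 2.29), PSAT1 (2.16 and 1.53), PHGDH (1.52 and 1.49), GPT2 (1.64 and 0.95), CBS (0.98 and 1.57), PSPH (1.28 and 1.03) and SHMT2 (1.45 and 0.59). CHAC1 degrades glutathione, for which SLC7A11 supplies cystine, ASNS makes asparagine, and PHGDH, PSAT1 and PSPH make serine, which SLC1A4 and SLC1A5 carry. ASNS began from a low level, with vehicle means of 2.02 ± 0.183 CPM under the PC3 label and 1.83 ± 0.324 CPM under the DU145 label (SD, n = 3). Genes of the amino acid response rose in 11 of 12 under the PC3 label (median 2.97) and in 9 of 11 under the DU145 label, where EIF2AK4, named after its values were seen, fell (median 1.27). Among them DDIT4 (5.30 and 2.05), SESN2 (4.16 and 2.33), ATF3 (3.79 and 2.41), STC2 (3.20 and 1.60), TRIB3 (2.40 and 1.66) and DDIT3 (2.74 and 1.27) passed under both labels. VLDLR passed under the PC3 label at 3.84 and stood at 0.86 under the DU145 label (edgeR adjusted p = 0.16), a difference of -2.98 (adjusted p = 0.000844). NUPR1 rose under the PC3 label from 0.543, 1.23 and 0.664 to 24.7, 27.1 and 23.1 CPM, and was too low to be tested under the DU145 label, where all 3 vehicle samples were at 0. As for the transporters, 9 of the 12 responses were smaller under the DU145 label by the interaction test (edgeR). That direction was taken by 10.2% of all genes tested.

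Targets of NRF2, the factor known for the antioxidant response and for driving SLC7A11, rose in 8 of 13 tested under the PC3 label and in 6 of 12 under the DU145 label. Of all genes tested, 21.7% and 17.2% rose under these labels. The medians of the NRF2 targets were 0.57 and 0.15. GCLC and GCLM, also known targets of NRF2, were counted among the enzymes above and are named after their values were seen. Neither rose, with log2 fold changes of 0.04 and -0.04 for GCLC (edgeR adjusted p = 0.691 and 0.698). For GCLM they were -0.11 and -0.28 (edgeR adjusted p = 0.205 and 1.64e-06). Past the study's threshold in either label were FTH1 (1.45 and 1.03), FTL (1.16 and 0.66), HMOX1 (1.42 and 0.37) and TXNRD1 (1.14 and 0.64), and the values of FTH1 are uncertain because its reads are shared with many near-identical copies. Of 9 regulators and partners of SLC7A11, NFE2L2 rose and CD44 fell under both labels, and BECN1 rose and KEAP1 fell under the PC3 label, with medians of 0.10 and 0.035. NFE2L2, the gene of NRF2, changed by 0.76 and 0.20, and ATF4 itself by 1.13 and 0.97, beside 1.86 and 2.11 for SLC7A11. These 5 genes were chosen for mention after their values were seen.

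**Figure D5:**
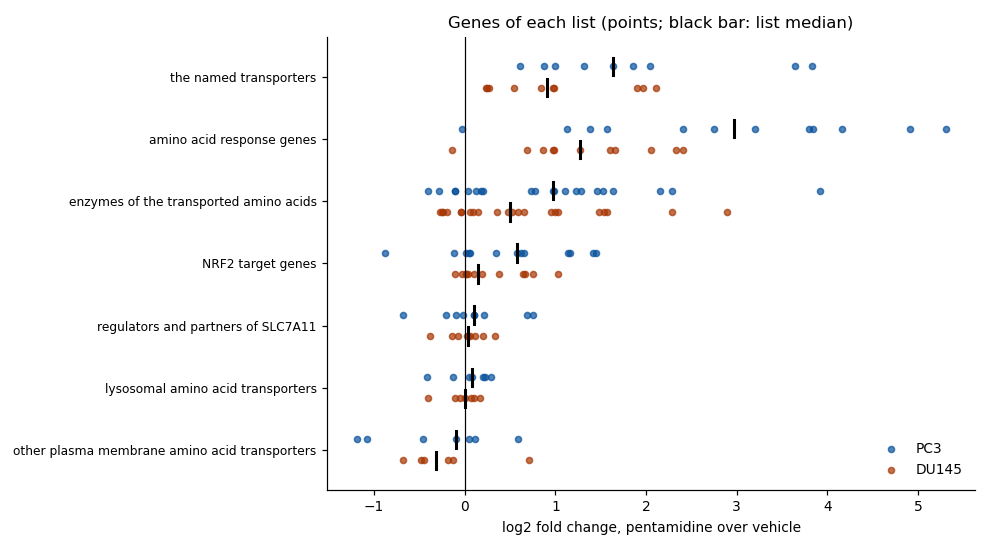
Log2 fold change with pentamidine of every tested gene of the transporters described here and of 6 related lists, with points for genes under the PC3 label (blue) and the DU145 label (brown) and black bars for medians. The transporters have medians of 1.63 and 0.91, the amino acid response genes 2.97 and 1.27, and the other plasma membrane transporters -0.10 and -0.32.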

How the data were processed

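mRNA was selected with oligo(dT) and sequenced from 12 samples, and the deposited table holds the count of reads per gene, made by the authors with HISAT2 2.1.0 on GRCh38. The counting program and its use of strand are not given in the sources used here. The authors also deposited a table named for FPKM whose values were CPM: 100% of 384876 values equalled CPM computed from the counts within 1 part in 100000, and 100% gave whole reads within 0.01. It had been planned as a table of normalized values, and was used only for a count test on the recovered reads, an alternative chosen after seeing the data, which called 6010, 4860, 3112 and 9405 genes, as many as the deposited counts did. Comparison tables of the authors (DESeq 1.18.1), with fold changes and p-values, were not used.

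In all 44 broken lines of the counts were left out, and 33595 entries gave 32077 genes after repeats were merged. In 24 entries the gene name had been turned into a date. Total counts were similar among the samples, so depth limits precision mainly for genes with few counts, such as SLC43A1 and SLC1A4. Replicates were compared by chi-square over genes, and all pairs differed by more than sampling noise.

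Counts were scaled by TMM, and genes were kept by filterByExpr with a minimum count of 10. They were tested with edgeR 4.0.16 (quasi-likelihood, R 4.3.3), with p adjusted over all genes by Benjamini-Hochberg and a threshold of 0.05. Pentamidine was compared with vehicle within each label, vehicle samples were compared between labels, and the interaction was tested over 12 samples. Alternatives were DESeq2 1.42.0, limma 3.58.1 on log2 CPM, other scalings and filters, 1 fit over all samples, a replicate block, and leaving out each sample. The steps were tested on simulated data. Lengths came from GENCODE release 29, in which 30950 of 31961 genes had the same position.

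Besides the 10 transporters, genes were named from each list if past an absolute log2 fold change of 1 at an adjusted p below 0.05 under either label, at most 8 a list by mean absolute change, and genes outside this rule are said to be chosen after their values were seen. The results of some listed genes are not reported here. The members and lists were chosen with earlier results of these data known.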

Additional observations from a re-analysis of the deposited data

Results flagged for a closer look

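The response to pentamidine differed between the labels for 8 of the 10 transporters, by the edgeR interaction test over 12 samples, and this difference is why they are listed. The log2 fold change under the DU145 label minus that under the PC3 label was -1.93 for SLC6A9, -1.67 for SLC1A4, -1.07 for SLC7A5, -0.79 for SLC3A2, -0.63 for SLC38A1, -0.45 for SLC7A1, -0.34 for SLC38A2 and -0.33 for SLC1A5. Because markers went against the labels, the difference is one between sets of samples, and what sets them apart was not tested.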

How the results depend on the processing

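The 9 transporters that rose under each label passed under every alternative run in which they were tested, and no direction of a called value was reversed. Without 1 sample at a time, 9 to 9 members passed under each label, 6 to 7 passed the study's threshold under the PC3 label and 3 to 4 under the DU145 label, 6 to 8 differed between vehicle samples, with 3 to 4 beyond 1 on the log2 scale, and 8 to 9 differed in response. Past the study's threshold under the DU145 label were 5 members with library size alone and in the 3 limma settings, against 3, and with library size alone the added members were SLC7A5 and SLC1A5. Requiring a log2 difference beyond 1 as well left 3 members with a different response, against 8. Between vehicle samples 10 members differed with library size alone and with limma on filtered values, against 7, and 9 with all 12 samples in 1 fit. With limma on log2(CPM + 1) without a filter 8 differed, 6 of them among the 7, and 6 of 9 did where each sample had to hold at least 10 counts, SLC43A1 not being tested. With the replicate number as a block, 9, 9, 8 and 7 members and 5599, 4794, 2803 and 9430 genes passed in PC3, DU145, the interaction and vehicle. Same-numbered samples did not deviate together (correlations across genes -0.073 to 0.026 in PC3, -0.013 to 0.001 in DU145 and -0.013 to 0.039 between vehicle samples). Differently numbered samples gave -0.081 to 0.085, -0.011 to 0.017 and -0.054 to 0.04 in the same order. No pairing by number was seen, but these correlations cannot exclude a pairing with little shared effect. For the interaction of SLC7A11, the adjusted p was 0.019 with library size alone, and 0.0459 and 0.0352 with limma on log2(CPM + 1) and log2(CPM + 0.1), within 0.00593 to 0.278. The count test on recovered reads was chosen after seeing the data. The cause of these changes was not tested. Few counts limit what can be said of SLC43A1, and 3 samples a group, whose labels do not say whether they came from separate cultures, limit all of the results.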
